A study of Mus musculus with 31 samples.

Results

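The 37 genes carried by mouse mitochondrial DNA were followed across 30 grouped libraries of gastrocnemius muscle, in a series on loss of MuRF1, sex and a high-fat diet. They were taken as all genes of the mitochondrial chromosome in the mm10 annotation (symbols starting with mt-). All 37 were among the 39017 genes of the count tables, and they comprise 13 protein-coding genes, 2 rRNA genes and 22 tRNA genes. MuRF1 is a ubiquitin ligase of striated muscle encoded by Trim63.

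The 8 groups were female knockout high fat (n = 3), female wild type high fat (n = 4), female knockout chow (n = 4), female wild type chow (n = 4), male knockout high fat (n = 3), male wild type high fat (n = 4), male knockout chow (n = 4) and male wild type chow (n = 4). Knockout mice lacked MuRF1, and the labels name neither their strain nor the cells in which the gene was lost. All mice ate chow from weaning, high-fat mice were moved at 8 weeks of age to a diet with 45% fat from lard, and muscle was taken from every mouse at 30 weeks. Each library was made from polyA-selected RNA of whole muscle with a stranded kit, and a library was assigned to the group whose title carries its animal number. For 4 libraries the title of the same record names another group, and 1 further library, whose animal number is in no title, was left out of every comparison.

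Mitochondrial DNA is a small circle whose strands are both transcribed as long precursors. Most tRNA genes sit between the larger genes, and their excision releases the rRNAs and mRNAs, which mitochondrial ribosomes use to make core subunits of respiratory complexes I, III, IV and V. All other subunits of these complexes are encoded in the nucleus, so each complex is built from both genomes, and skeletal muscle is among the tissues rich in these transcripts.

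Stretches of mitochondrial DNA have also been copied into nuclear chromosomes, and counted reads cannot tell identical copies apart. The sequences below show this for the subunit genes of complex I mt-Nd4l and mt-Nd3, with the copy's difference in capitals, and for mt-Atp8, whose end is shared with mt-Atp6. Over 294 of its 297 bases mt-Nd4l is identical to the pseudogene Gm10222 of chromosome 1, so that 1 run stands for both. The first 60 bases of mt-Nd3 differ from Gm28438 by T3C, counted from the first base of mt-Nd3. In mt-Atp8 the capitals mark the 43 bases that also begin mt-Atp6, a subunit gene of the same complex V. All are given on the coding strand in mm10 (GRCm38), as chrMT:9877-10170 and chr1:24612407-24612700 for mt-Nd4l and Gm10222, chrMT:9459-9518 for mt-Nd3, chr1:24613060-24613119 for Gm28438 and chrMT:7766-7969 for mt-Atp8.
mt-Nd4l and Gm10222: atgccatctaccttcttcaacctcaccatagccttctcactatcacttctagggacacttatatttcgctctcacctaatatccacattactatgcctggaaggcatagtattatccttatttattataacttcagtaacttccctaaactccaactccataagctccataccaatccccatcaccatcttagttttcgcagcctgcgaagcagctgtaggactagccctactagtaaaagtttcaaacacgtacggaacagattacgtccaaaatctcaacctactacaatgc
mt-Nd3: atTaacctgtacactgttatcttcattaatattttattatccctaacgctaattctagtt
Gm28438: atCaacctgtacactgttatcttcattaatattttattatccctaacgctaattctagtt
mt-Atp8: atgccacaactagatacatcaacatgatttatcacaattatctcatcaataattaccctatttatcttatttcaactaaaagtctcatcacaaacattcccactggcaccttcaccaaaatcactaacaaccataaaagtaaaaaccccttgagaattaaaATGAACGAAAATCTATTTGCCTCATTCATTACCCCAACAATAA

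Annotated nuclear copies of at least 99.5% identity covered over 90% of the length of 5 genes that lie side by side on mitochondrial DNA. These were mt-Co2 (Gm28661), mt-Atp6 (Gm10925), mt-Co3 (Gm28437), mt-Nd3 (Gm28438) and mt-Nd4l (Gm10222). The copies lie in the same order within 4663 bases of chromosome 1, at 24611535 to 24616197. That stretch also holds 63.6% of mt-Nd4 (Gm28439) and 31.3% of mt-Co1 (Gm29216). No annotated transcript copies mt-Atp8, which lies between mt-Co2 and mt-Atp6, but the gap between Gm10925 and Gm28661 is 233 bases, as is the gap between the matching points on mitochondrial DNA. Of these chromosome 1 copies Gm10222 was listed in the count tables. Reads of it numbered 1086 to 7220 per library, between 4.82 and 13.7 times those of mt-Nd4l, which had 129 to 1171.

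Levels per length, as counts scaled to a library total of 1000000 (CPM) and divided by the gene's length in kilobases (RPKM), differed widely between genes. Complex IV gene mt-Co1 had the highest median, at 25387 RPKM over 30 libraries, followed by mt-Cytb of complex III at 17037 and the complex I genes mt-Nd1 at 13507, mt-Nd2 at 8538, mt-Nd4 at 6348, mt-Nd6 at 5824 and mt-Nd5 at 5214 RPKM. The 5 genes of the copied stretch had medians of 109.6 to 827 RPKM, namely 827 for mt-Co2, 671 for mt-Co3, 473 for mt-Atp6, 169 for mt-Nd4l and 109.6 for mt-Nd3, and mt-Atp8 between them had 35.2. This is the order of the medians, and over the libraries the ranges of neighbours in it overlap, from mt-Co1 with mt-Cytb down. The copied and the higher genes also overlap, with mt-Co3 at up to 1592 RPKM and mt-Nd5 down to 1325 RPKM. The gene of the small ribosomal RNA, mt-Rnr1, had a median of 900 RPKM and that of the large one, mt-Rnr2, of 1145 RPKM, in libraries selected for polyA. The sources used here do not say how reads matching several places were counted, so the levels of the 6 low protein-coding genes are uncertain. Whether the copies account for their low level was not tested.

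**Figure D1:**
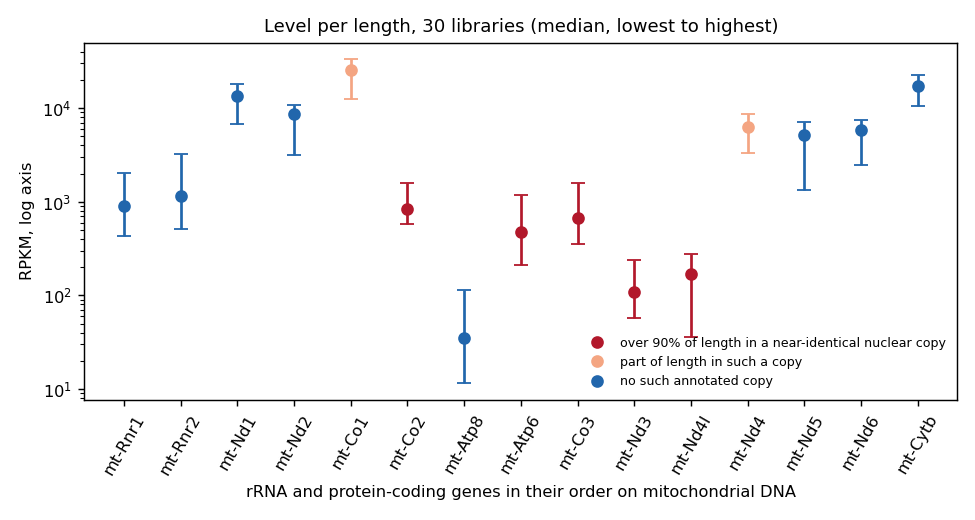
Level per length (RPKM, log axis) of the 13 protein-coding and 2 rRNA genes in their order on mitochondrial DNA. Points are medians over 30 libraries, bars run from the lowest to the highest library, and colour gives the share of the gene's length matched at 99.5% identity or more by annotated nuclear transcripts. The 5 genes matched over more than 90% of their length have medians of 109.6 to 827 RPKM, and mt-Atp8 between them has 35.2 RPKM.

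The tRNA genes, of 59 to 75 bases, are shorter than a 150-base read, so a read of full length would reach beyond the gene. How far the counted reads extend was not examined, and they do not show a free tRNA. The proline tRNA gene mt-Tp led the tRNA genes with a median of 668.5 reads per library. Next were the asparagine tRNA gene mt-Tn with 238.5, the cysteine tRNA gene mt-Tc with 181 and the glutamate tRNA gene mt-Te with 180. Reads were listed as 0 in all 30 libraries for mt-Tf and mt-Td, which leaves room for up to 3 reads, or 0.201 to 0.321 CPM, per library. In all, 21 of the 37 genes had at least 10 reads in every library.

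Before the comparisons, the libraries were checked against their labels. Total counts ran from 9342028 to 14919379. Trim63 lay between 0.469 and 6.24 CPM in 14 knockout libraries, against 109 to 254 CPM in 16 wild-type libraries, and it was lower in knockouts on average (log2 fold change -7.19, edgeR adjusted p = 4.693e-15). Wild-type libraries male chow 3, female chow 1 and female high fat 4 had low Trim63, at 109 to 130.1 CPM, and female knockout chow 1 and 3 and female wild type chow 3 held the keratin gene Krt10 at 22.4 to 47.4 CPM. Of 8 skeletal muscle markers, 7 had medians of 3484 CPM or more, while the troponin gene Tnnc2 had 0.0805 to 0.975 CPM.

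Mitochondrial genes took between 5.40% and 13.8% of all counts in a library. Protein-coding genes made up 93.6% to 98.1% of the mitochondrial counts, rRNA genes 1.78% to 6.30% and tRNA genes 0.0708% to 0.158%. By complex, the 7 complex I genes held 34.7% to 43.2% of them, mt-Cytb 17.1% to 23.7%, the 3 complex IV genes 36.1% to 43.0% and the 2 complex V genes 0.195% to 0.695%. The mixture varied less than the total for the abundant genes. This is so in part by construction, because an abundant gene makes up much of the total it is divided by. Between libraries mt-Co1 varied by 21.3% (coefficient of variation) as CPM and by 4.18% as a share of mitochondrial counts, and mt-Nd1 by 22.7% and 5.84%. For mt-Nd5 the values were 38.2% and 25.0%, and for mt-Rnr2 45.4% and 37.7%.

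The mitochondrial share of counts was lower on the high-fat diet in females and not in males, by group means and with no test, because it is a sum over the genes studied. It was 9.75%, 5.55% and 9.16% in female knockouts on high fat, against 12.0%, 12.4%, 10.6% and 11.9% in female knockouts on chow. Female wild types on high fat had 11.9%, 9.09%, 5.40% and 7.78%, against 12.9%, 10.7%, 10.2% and 11.2% in female wild types on chow. The female knockout groups do not overlap, and in wild types 1 high-fat library lies within the chow range. Male knockouts on high fat had 13.5%, 12.6% and 12.9%, against 12.2%, 13.8%, 9.80% and 8.31% in male knockouts on chow. Male wild types on high fat had 13.5%, 10.0%, 9.41% and 10.3%, against 12.8%, 7.37%, 12.7% and 7.60% on chow. Both male pairs overlap, and the male wild types on chow form a high and a low pair.

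As differences of group means, high fat minus chow was -3.59 points in female knockouts, -2.68 in female wild types, 1.98 in male knockouts and 0.688 in male wild types. The SD within groups was 2.04 points, so the differences in males are smaller than it. Without 1 library the difference ran from -4.38 (without high fat 1) to -2.29 (without high fat 2) in female knockouts and from -3.80 (without high fat 1) to -1.64 (without high fat 3) in female wild types. In male knockouts it ran from 1.07 (without chow 4) to 2.92 (without chow 2). In male wild types it ran from -0.228 (without chow 2) to 1.58 (without chow 1) and was also below 0 without high fat 1, at -0.221, so that its direction rests on single libraries. By genotype, knockout minus wild type was 2.20 points in males on high fat, which is above the SD within groups. Without 1 library that difference ran from 1.73 to 3.11. In the other strata it was 0.908 in males on chow, 0.517 in females on chow and -0.388 in females on high fat. Averaged over strata, knockouts had 11.0% and wild types 10.2%, a difference of 0.808 points that is smaller than this SD. Females had 9.92% and males 11.2%, a difference of -1.32 points, also smaller than this SD. The SD is the spread of single libraries within a group. It does not measure the error of a difference of means, so being smaller than it does not make a difference noise. In bulk muscle, fewer cells of a type and less RNA per cell cannot be told apart.

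**Figure D2:**
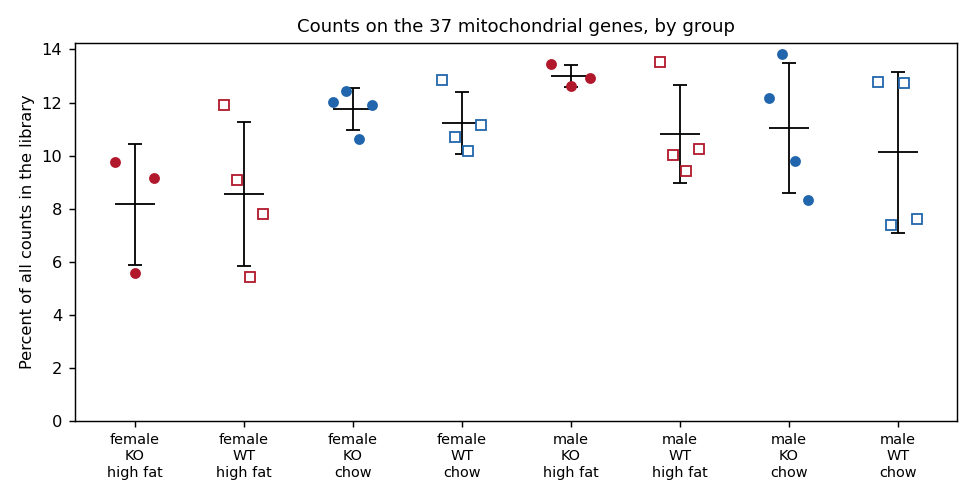
Percent of all counts on the 37 mitochondrial genes in each of 30 libraries (points), with the group mean and SD (bars). Circles are knockouts and squares wild types, red is high fat and blue chow. Female high-fat libraries lie between 5.40% and 11.9%, female chow libraries between 10.2% and 12.9%.

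No mitochondrial gene was called for loss of MuRF1 on average. The test was edgeR's quasi-likelihood test over the 14024 genes that passed a filter on low counts, with p-values adjusted over all of them (Benjamini-Hochberg, 0.05). Of the 37 genes, 26 passed the filter, namely all 13 protein-coding genes, both rRNA genes and 11 tRNA genes. The average genotype contrast called 4.39% of all genes and 0 of the 26 (4 at an unadjusted p under 0.05, 0 by DESeq2). The median log2 fold change of the 13 protein-coding genes was 0.14, knockout over wild type. Individual values ran from -0.08 for mt-Atp8 (± 0.32 SE) to 0.29 for mt-Nd2 (± 0.15 SE). mt-Co1 averaged 29749 ± 9146 CPM in female knockouts and 32534 ± 10439 CPM in female wild types on high fat (SD, n = 3 and 4), and 42708 ± 2648 and 41258 ± 4833 CPM on chow (n = 4 each). In males it averaged 47013 ± 1485 CPM in knockouts and 41325 ± 6935 CPM in wild types on high fat (n = 3 and 4), and 41728 ± 7960 and 40158 ± 11543 CPM on chow (n = 4 each). All 4 pairs of groups overlap within their SD.

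Within strata, the genotype contrast called 1 of the 26 genes in males on chow and 0 elsewhere. It called 6.95% of all genes in males on chow, 0.264% in males on high fat, 0.0713% in females on high fat and 0.0927% in females on chow. In the last 3 strata, 7, 0 and 0 of the 26 had an unadjusted p under 0.05, and DESeq2 called 0. The gene called was mt-Tl1, encoding a leucine tRNA, with 8.86, 9.85, 6.57 and 7.20 CPM in male knockouts on chow, against 3.62, 2.51, 6.00 and 4.00 CPM in male wild types on chow. The groups do not overlap, and the log2 fold change was 1.19 ± 0.31 (SE, edgeR adjusted p = 0.02111). Without 1 library the call was lost in 4 of 30 fits, namely without male wild type chow 1 (adjusted p = 0.063) or 2 (0.0785) and without male knockout chow 1 (0.0568) or 2 (0.107).

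Averaged over sex and genotype, the diet contrast called 0.827% of all genes and 1 of the 26 mitochondrial genes. This was again mt-Tl1, lower on high fat by a log2 fold change of -0.81 ± 0.18 (SE, edgeR adjusted p = 0.03094). Its level was 3.22, 0.871 and 1.86 CPM in female knockouts on high fat, against 3.37, 4.21, 2.64 and 2.83 CPM in female knockouts on chow. Female wild types had 3.48, 2.99, 1.51 and 0.958 CPM on high fat, against 4.13, 3.15, 4.14 and 6.41 CPM on chow. Male knockouts had 4.13, 4.42 and 4.54 CPM on high fat, which do not overlap the 6.57 to 9.85 CPM of male knockouts on chow. Male wild types had 4.51, 1.61, 1.58 and 1.77 CPM on high fat, against 2.51 to 6.00 CPM on chow. The call was lost in 9 of 30 fits without 1 library, with adjusted p up to 0.0853 without female knockout high fat 2. It was also lost with no filter, after a GC correction, under both other groupings of the libraries and without the low-Trim63 or high-Krt10 libraries. None of the 13 protein-coding genes was called by diet on average, with values from -0.22 for mt-Nd5 (± 0.19 SE) to 0.22 for mt-Atp6 (± 0.21 SE).

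Females had lower counts than males for several of the abundant genes. The sex contrast, females over males averaged over genotype and diet, called 30.8% of all genes, 17.4% higher and 13.4% lower in females. Of the 22 mitochondrial genes that passed the filter in 23 or more libraries, 12 were lower in females and 0 higher. Their median log2 fold change was -0.33, against 0.02 for all genes tested. The 12 comprise 5 protein-coding genes and 7 tRNA genes. The protein-coding genes were mt-Co1 (-0.35 ± 0.11 SE, edgeR adjusted p = 0.01345), which encodes the catalytic subunit of complex IV, and mt-Nd6 (-0.35 ± 0.12, adjusted p = 0.02563), the only protein-coding gene of the other strand. The others were mt-Nd4 (-0.31 ± 0.11, adjusted p = 0.02659), mt-Nd1 (-0.30 ± 0.11, adjusted p = 0.0424) and mt-Cytb (-0.26 ± 0.09, adjusted p = 0.03094).

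In single libraries the sexes overlap for these genes. mt-Co1 ran from 19349 to 45090 CPM in 7 females on high fat and from 36895 to 48060 CPM in 8 females on chow, against 37626 to 51720 CPM in 7 males on high fat and 29366 to 50604 CPM in 8 males on chow. The lowest values belong to females on high fat. Without 1 library at a time, mt-Co1 was called in 30 of 30 fits. mt-Nd4 and mt-Nd6 lost the call without male knockout chow 2 (adjusted p = 0.055 and 0.0504) or female knockout high fat 2 (0.0557 and 0.0553). mt-Cytb lost it without these (0.0703 and 0.0593) and without male wild type chow 1 (0.0558) or 3 (0.0543), and mt-Nd1 in 9 of 30 fits, with adjusted p up to 0.086 without female knockout high fat 2. With own-title groups for every library or only libraries whose labels give 1 group, mt-Nd4, mt-Nd6, mt-Cytb and mt-Nd1 were not called (adjusted p = 0.0507 to 0.0816). With no filter, mt-Nd4, mt-Nd6 and mt-Nd1 were not called either (0.0624, 0.061 and 0.0931). Over all 41 other settings the call was lost in 1 for mt-Co1, 6 each for mt-Nd4 and mt-Nd6, 7 for mt-Cytb and 14 for mt-Nd1. Without the 3 libraries of high Krt10 none of the 5 was called, with mt-Co1 at -0.31, mt-Nd6 at -0.31, mt-Nd4 at -0.29, mt-Nd1 at -0.27 and mt-Cytb at -0.24.

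Of the tRNA genes, 5 of 6 tested on the minus strand and 2 of 5 tested on the plus strand were lower in females. On the minus strand these were the genes for cysteine (mt-Tc, -0.87 ± 0.19 SE), asparagine (mt-Tn, -0.76 ± 0.21), tyrosine (mt-Ty, -0.75 ± 0.19), glutamate (mt-Te, -0.61 ± 0.23) and proline (mt-Tp, -0.37 ± 0.11). On the plus strand they were the genes for tryptophan (mt-Tw, -0.75 ± 0.24) and leucine (mt-Tl1, -0.70 ± 0.18). The remaining plus-strand genes tested, mt-Tg, mt-Th and mt-Tl2, passed the filter mostly through female libraries. They could hardly be lower in females, so the counts above do not compare the strands. mt-Tn ran from 5.29 to 22.6 CPM in females on high fat and 14.3 to 21.9 CPM in females on chow, against 5.83 to 43.9 CPM in males on high fat and 14.8 to 45.7 CPM in males on chow. The call of mt-Te was lost in 23 of 41 other settings, 16 of them fits without 1 library, with adjusted p up to 0.0916 without male knockout chow 2. The other 6 were called in all 30 fits without 1 library. The minus-strand genes lie opposite the long plus-strand precursors, and the strand setting of the counting is not given, so reads of both strands cannot be told apart.

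**Figure D3:**
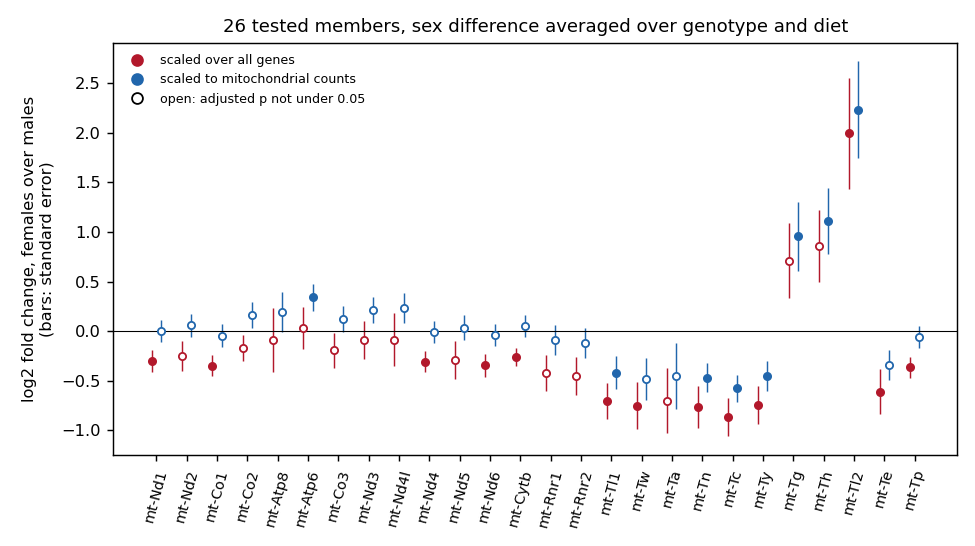
Log2 fold change, females over males averaged over genotype and diet, of the 26 tested mitochondrial genes, with standard errors. Red is the fit scaled over all genes and blue the fit scaled to mitochondrial counts, and open points have an adjusted p not under 0.05. In the first fit 5 protein-coding and 7 tRNA genes are lower in females, and in the second mt-Co1, mt-Nd1, mt-Nd4, mt-Nd6 and mt-Cytb lie near 0. The values of mt-Th, mt-Tl2, mt-Tg and mt-Ta depend on the filter on low counts.

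Relative to each other, the abundant protein-coding genes differed little between the sexes. This is so in part by construction, because they make up most of the mitochondrial counts used as the scale. The median share was 37.3% for mt-Co1 and 18.8% for mt-Cytb. When each library was scaled to its mitochondrial counts, 41.5% of all genes were called, since nuclear genes then shift by a median of 0.32. Of all genes, 40.0% were called higher in females and 1.51% lower. Of the 22 mitochondrial genes, mt-Atp6 was called higher in females (0.34 ± 0.14 SE, edgeR adjusted p = 0.03921), and mt-Tc, mt-Tn, mt-Ty and mt-Tl1 were called lower, with log2 fold changes from -0.58 to -0.42. The same scaling called 0 of the 26 genes for genotype (1.58% of all genes) and for diet (0.0357%), with 2 and 7 at an unadjusted p under 0.05. mt-Atp6 is among the genes with a nuclear copy, and its call was lost in 12 of 30 fits without 1 library, with adjusted p up to 0.0835 without female knockout chow 2. That of mt-Tl1 was also lost in 12 of 30, with adjusted p up to 0.106 without male wild type high fat 1.

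Markers of other cells differed between the sexes as well. All 6 fibroblast markers, 4 of 5 macrophage, 3 of 5 adipocyte, 4 of 4 Schwann cell and 9 of 9 slow fibre markers were higher in females. Of all genes, 17.4% were higher. Calls for sex of the endothelial, erythroid, keratinocyte and skeletal muscle lists are not given here. Summed endothelial markers ran from 151 to 273 CPM in females on high fat and 217 to 302 CPM in females on chow. Males had 160 to 245 CPM on high fat and 86.1 to 266 CPM on chow, so the sexes overlap. Summed slow fibre markers ran from 2254 to 4413 CPM in females on high fat and 2100 to 3719 CPM in females on chow, against 909 to 2356 CPM in males on high fat and 1084 to 2424 CPM in males on chow. The keratinocyte markers Krt5 and Krt14 were at 0 in 26 of 30 libraries. The part of these cells in the mitochondrial difference was not tested.

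Among the 22 genes with counts in most libraries, mt-Nd5, which encodes a proton-pumping core subunit of complex I, had the largest difference between the sexes in its diet effect. mt-Nd5 had 7496, 2417 and 5976 CPM in female knockouts on high fat, against 11996, 12475, 10270 and 11013 CPM in female knockouts on chow. Female wild types had 8289, 5777, 3288 and 2838 CPM on high fat, against 11039, 10636, 10327 and 9721 CPM on chow. All 7 female high-fat libraries lie below all 8 female chow libraries. The share of all genes that separate the female diets in this way is not given here. In males, knockouts had 12836, 11125 and 10392 CPM on high fat, against 7179, 10913, 5691 and 4142 CPM on chow. Male wild types had 12535, 9349, 6963 and 9672 CPM on high fat, against 9712, 3818, 9233 and 3648 CPM on chow. The male groups overlap, with the lowest values on chow.

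The diet effect on mt-Nd5 was -0.97 ± 0.41 (log2, SE) in female knockouts and -0.98 ± 0.37 in female wild types, against 0.54 ± 0.39 in male knockouts and 0.54 ± 0.37 in male wild types. None of the 4 was called alone (edgeR adjusted p = 0.09027, 0.05399, 0.3881 and 0.651). Their difference between the sexes was -1.51 ± 0.38 (edgeR adjusted p = 0.002912). This interaction called 45.2% of all genes, 21.6% higher and 23.6% lower, so a call in it is common. The call of mt-Nd5 was kept in 41 of 41 other settings, with values from -1.69 to -1.13, and the value nearest 0 was that after a correction for GC content. The genotype-by-diet value of mt-Nd5 was 0.00 ± 0.38.

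Within the mitochondrial counts mt-Nd5 moved in the same way. It held 7.69%, 4.35% and 6.52% of them in female knockouts and 6.97%, 6.36%, 6.08% and 3.65% in female wild types on high fat. On chow it held 9.99%, 10.0%, 9.68% and 9.24% in female knockouts and 8.58%, 9.94%, 10.1% and 8.71% in female wild types. Again the female diets do not overlap. Males had 7.40% to 9.54% on high fat and 4.80% to 7.89% on chow, which overlap slightly. With libraries scaled to mitochondrial counts the interaction was -1.19 ± 0.25 (edgeR adjusted p = 0.00052), called in 38 of 38 other settings, where 41.7% of all genes were called, 37.8% higher and 3.89% lower.

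**Figure D4:**
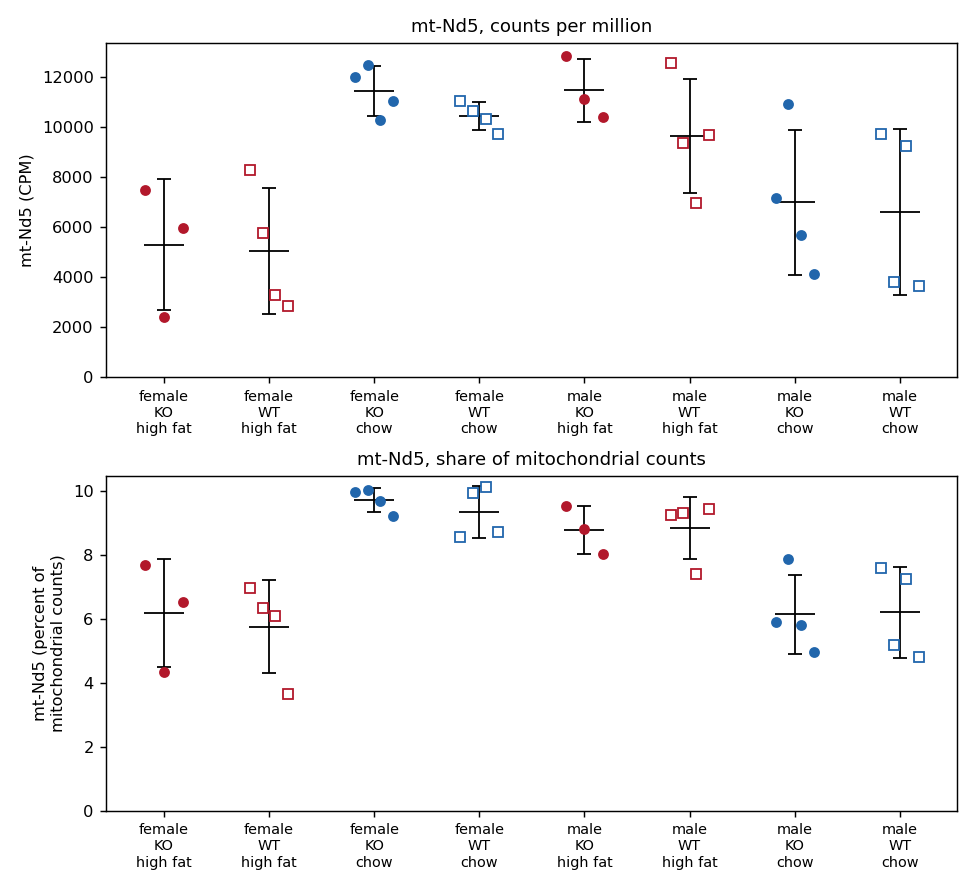
mt-Nd5 in 30 libraries as CPM (top) and as percent of mitochondrial counts (bottom), with group means and SD. Circles are knockouts and squares wild types, red is high fat and blue chow. All 7 female high-fat libraries lie below all 8 female chow libraries in both panels, whereas the male groups overlap with lower values on chow.

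Other mitochondrial genes in the same interaction gave smaller or less certain values. Of the 22 genes with counts in most libraries, 2 were called lower and 0 higher, with a median of -0.35 against -0.03 for all genes. Besides mt-Nd5 this was mt-Nd2, also of complex I, at -0.75 ± 0.30 (SE, edgeR adjusted p = 0.04125). mt-Nd2 ran from 3280 to 9004 CPM in females on high fat, against 8668 to 11253 CPM in females on chow, and from 5729 to 11080 CPM in males on high fat, against 4636 to 11126 CPM in males on chow. Its groups overlap in both sexes. Its call was lost in 25 of 41 other settings. Of these, 18 were fits without 1 library, with adjusted p up to 0.106 without female knockout high fat 2. The others were no filter, the GC correction (-0.36), both other groupings of the libraries and leaving out the low-Trim63 or high-Krt10 libraries, so the call of mt-Nd2 is not firm. mt-Co1 was -0.35 ± 0.21 (adjusted p = 0.1825), mt-Rnr1 -0.70 ± 0.37 (adjusted p = 0.1244) and mt-Rnr2 -0.53 ± 0.39 (adjusted p = 0.2678).

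Scaled to mitochondrial counts, 2 further protein-coding genes of the copied stretch and mt-Tn were called. In that fit 41.7% of all genes were called, 37.8% higher and 3.89% lower, so a higher call is common. mt-Co2, which carries the entry site for electrons of complex IV, was higher by 1.04 ± 0.26 (SE, edgeR adjusted p = 0.001875). It held 0.499% to 1.21% of mitochondrial counts in females on high fat, against 0.388% to 0.546% in females on chow, and 0.364% to 0.701% in males on high fat, against 0.497% to 0.744% in males on chow. The ranges overlap slightly in females and widely in males. mt-Tn was higher by 0.88 ± 0.29 (adjusted p = 0.01176). mt-Nd4l was lower by -0.87 ± 0.31 (adjusted p = 0.02019), a call lost without female knockout high fat 2 (-0.73, adjusted p = 0.0627). Its twin Gm10222 fell by 1.34 ± 0.39 in the fit scaled over all genes (adjusted p = 0.008478), in which mt-Nd4l was -1.14 ± 0.53 (adjusted p = 0.08307).

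GC content moved with this interaction. After a per-library trend on GC content was taken out, 41.2% of all genes were still called, and the values of the 26 genes lay higher than before. mt-Nd5 was then -1.13 and called, mt-Co2 (0.89) and mt-Tn (0.90) were called higher, and mt-Co1 was 0.01. The correction was fitted on nuclear genes and has not been tested for genes of mitochondrial DNA.

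Most nuclear-encoded subunits of the same complexes were called in this interaction with the opposite sign to mt-Nd5 and mt-Nd2. Of 36 nuclear complex I genes, 33 were higher and 1 lower (median log2 0.68), and complex III had 8 of 9 higher (0.56), complex IV 12 of 13 (0.78) and complex V 13 of 15 (0.71). Among them were Ndufv3 (1.05 ± 0.16 SE) and Ndufa11 (0.96 ± 0.15) of complex I, Uqcrq (0.97 ± 0.17) of complex III, Cox5b (0.98 ± 0.15) of complex IV and Atp5d (1.00 ± 0.15) of complex V. The 13 mitochondrial genes had a median of -0.35, with 11 below and 2 above 0. After the GC correction the nuclear lists had 34 of 36, 7 of 9, 10 of 13 and 11 of 15 genes higher. The mitochondrial genes also lay higher after it, so the contrast between the genomes was smaller. mt-Nd5 (-1.13) was then still called lower, mt-Nd2 (-0.36) was no longer called and mt-Co2 was called higher. Without the 3 libraries of high Krt10 the nuclear lists had 32 of 36, 8 of 9, 13 of 13 and 11 of 15. The genes of both genomes share the libraries and the scaling, and their difference as such was not tested.

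**Figure D5:**
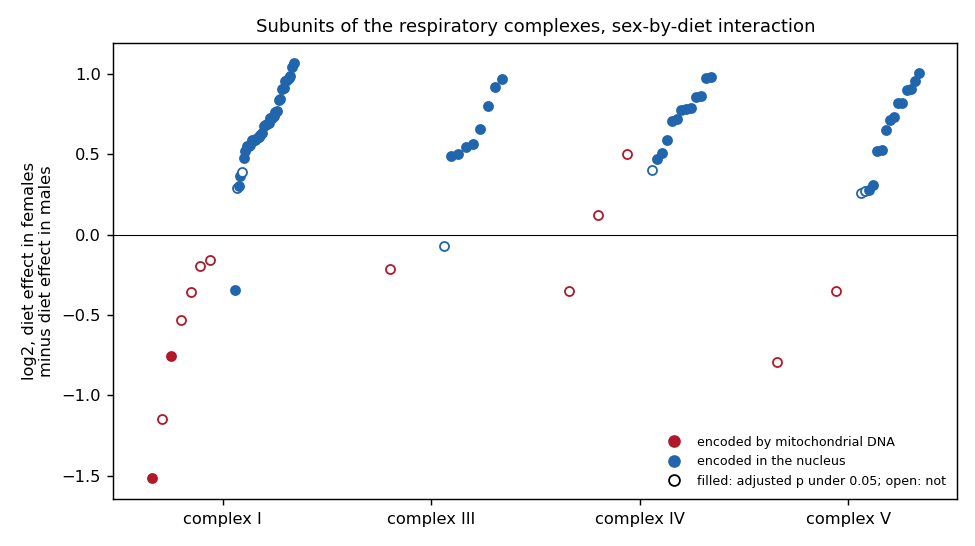
Sex-by-diet interaction (log2, diet effect in females minus diet effect in males) of respiratory chain subunits by complex. Red points are the 13 genes of mitochondrial DNA and blue points the nuclear genes, filled where the adjusted p is under 0.05. mt-Nd5 at -1.51 and mt-Nd2 at -0.75 are filled below 0, and nearly all nuclear subunits are filled above 0.

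By diet within females, many nuclear subunits were higher on high fat while none of the 22 mitochondrial genes was called. In female knockouts, 19.2% of all genes were called by diet, 10.4% higher, and 23 of 36 complex I, 5 of 9 complex III, 9 of 13 complex IV and 8 of 15 complex V nuclear genes were higher on high fat. In female wild types, 25.4% of all genes were called, 12.9% higher, and the counts were 22 of 36, 6 of 9, 11 of 13 and 10 of 15. Without the 3 libraries of high Krt10, 106 genes and none of these nuclear subunits were called in female knockouts, with medians from 0.37 to 0.44, and the counts in female wild types were 12 of 36, 4 of 9, 7 of 13 and 4 of 15. The 22 mitochondrial genes had medians of -0.38 and -0.31 in these contrasts, with 0 calls each (2 and 5 at an unadjusted p under 0.05). DESeq2 called 0 of the 26 mitochondrial genes in female knockouts and 3 in female wild types, namely mt-Nd5, mt-Rnr2 and mt-Tl1, all lower. In male knockouts (5.83% of all genes called) and male wild types (0.349%), edgeR called 0 of the 26, with 3 each at an unadjusted p under 0.05 and with 1 and 0 called by DESeq2. The medians of the 22 were -0.02 and 0.08.

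Genes that replicate, transcribe and process mitochondrial DNA and RNA were called in the interaction at shares near or under those of all genes (21.6% higher and 23.6% lower). Of 15 genes for replication and transcription, 4 were higher and 0 lower, namely Polrmt (0.53 ± 0.13 SE), the mitochondrial RNA polymerase, the helicase Twnk (0.34 ± 0.14), the topoisomerase Top1mt (0.35 ± 0.12) and the single-strand binding protein Ssbp1 (0.40 ± 0.15). Of 18 genes for RNA processing and stability, 4 were higher and 3 lower. These include Elac2 (0.32 ± 0.09), which cuts tRNA 3′ ends, Fastk (0.47 ± 0.11) and Tbrg4 (0.55 ± 0.10), both of the FASTK family, and Trmt10c (-0.46 ± 0.13), a subunit of mitochondrial RNase P. For sex alone, where 17.4% of all genes were higher and 13.4% lower, Twnk (0.30 ± 0.07), Tfb1m (0.20 ± 0.08) and the DNA polymerase Polg (0.16 ± 0.05) were higher in females, and Tefm (-0.17 ± 0.07) and Fastkd2 (-0.16 ± 0.05) lower.

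Cell markers moved with the same interaction. Of fibroblast markers 5 of 6, of macrophage markers 4 of 5, of adipocyte markers 4 of 5, of erythroid markers 3 of 5, of Schwann cell markers 3 of 4, of endothelial markers 1 of 4 and of keratinocyte markers 0 of 5 were called lower, and 5 of 7 skeletal muscle and 4 of 9 slow fibre markers higher. Summed fibroblast markers ran from 394 to 1160 CPM in females on high fat, against 1235 to 2258 CPM in females on chow, and from 540 to 1258 CPM in males on high fat, against 128 to 1054 CPM in males on chow. Summed skeletal muscle markers ran from 133314 to 169715 CPM in females on high fat, against 118270 to 139537 CPM in females on chow, and from 121361 to 151641 CPM in males on high fat, against 136666 to 169928 CPM in males on chow. None of the fibroblast markers was at 0 in any library. The part of these cells in the mitochondrial values was not tested.

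The remaining 4 tested genes, mt-Th, mt-Tl2, mt-Tg and mt-Ta, had few reads and passed the filter through 4 to 8 libraries each. For mt-Th these were 4 female chow libraries, for mt-Tl2 7 female chow libraries and 1 other female, and for mt-Tg 4 females and 1 male. For mt-Ta they were 3 male knockout chow libraries, 1 male wild type chow library and 1 female wild type library on each diet. A gene that passed through the group where it is high had to differ, so counts are given for mt-Th and mt-Tl2 with no test. mt-Th and mt-Tl2 encode tRNAs for histidine (mt-Th) and for leucine (mt-Tl2), and both lie on the plus strand between mt-Nd4 and mt-Nd5, as printed here 5′ to 3′ from mm10 at chrMT:11546-11612 and chrMT:11671-11741, because the filter bears most on these genes.
mt-Th: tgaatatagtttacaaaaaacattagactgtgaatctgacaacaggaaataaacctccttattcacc
mt-Tl2: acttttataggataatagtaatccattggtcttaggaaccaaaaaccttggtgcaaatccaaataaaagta

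mt-Th had 5, 1 and 3 reads in female knockouts on high fat, against 20, 20, 7 and 18 reads in female knockouts on chow, and 11, 8, 0 and 1 reads in female wild types on high fat, against 9, 6, 8 and 14 reads in female wild types on chow. mt-Tl2 had 1, 1 and 2 reads in female knockouts on high fat, against 27, 11, 1 and 19 on chow, and 14, 6, 0 and 1 in female wild types on high fat, against 14, 19, 15 and 8 on chow. Males had 0 to 9 reads of mt-Th and 0 to 4 reads of mt-Tl2. For mt-Tl2 the counts of 8 or more sit in females on chow, the exception being female wild type high fat 1 with 14, while female knockout chow 3 had 1. For mt-Th the female knockout diets do not overlap, while female wild types on chow overlap with female wild types and males on high fat.

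The other interactions called no mitochondrial gene. Genotype by diet called 0.107% of all genes and 0 of the 26 (0 at an unadjusted p under 0.05, 0 by DESeq2). Genotype by sex called 0.0285% of all genes and 0 of the 26 (8 at an unadjusted p under 0.05, 1 by DESeq2). Of the 26 genes, 25 had a negative value for genotype by sex, with a median of -0.54. Here the knockout difference in males is subtracted from that in females. The share of negative values among all genes is not given here. The 26 genes share each library's mitochondrial total, so their signs are not separate results. Of them, mt-Ta passed the filter through 3 male knockout chow libraries and fewer in any other group, which favours a negative value. In the fit scaled to that total the abundant protein-coding genes had mixed signs, from -0.12 for mt-Nd1 to 0.19 for mt-Nd6. In that fit mt-Tl1 was -1.10 and mt-Tc -0.72, and neither was called. Scaled to mitochondrial counts, genotype by diet called 0.0% of all genes and genotype by sex 0.0428%, and each called 0 of the 26 (1 and 6 at an unadjusted p under 0.05, DESeq2 not run at this scaling).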

How the data were processed

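Polyadenylated RNA of mouse gastrocnemius muscle was sequenced in 31 libraries with paired 150-base reads. The authors deposited raw read counts per gene, 1 table of 39017 Ensembl identifiers for each library. Build mm10 and the tools bcl2fastq and featureCounts are named, per the submitters' processing notes. Not given in the sources used here are the aligner, annotation release, strand setting and treatment of multiply mapping reads. Symbols, positions and sequences came from GENCODE M21, which held 37607 of the identifiers.

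Grouping followed the title that carries the animal number of the count table. Animal numbers differ between libraries, each of which therefore counts as 1 animal, and of 42 pairs within groups 0 were identical (lowest chi-square per gene 4.362). Total counts of 9342028 to 14919379 make 3 counts equal to 0.201 to 0.321 CPM (counts scaled to a library total of 1000000), which covers counting error only.

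Differences were tested with edgeR 4.0.16 in R 4.3.3 (quasi-likelihood test, TMM scaling, robust dispersion) with 1 coefficient per group. A filter with a minimum count of 10 left 14024 genes, and the common dispersion was 0.0202, or a biological variation of 14.2%. The 14 contrasts were genotype, diet and sex averaged over strata, genotype and diet within each of 4 strata, and 3 interactions. P-values were adjusted over all genes tested (Benjamini-Hochberg, 0.05), and standard errors are the fold change over the root of its F statistic. A second fit replaced library sizes by mitochondrial counts. Shares of counts got no test. Nuclear copies were sought with blastn among annotated transcripts at 95% identity or more over at least 50 bases. The edgeR fit with TMM scaling was run on simulated counts, for the contrasts of sex and of sex by diet only. The fit scaled to mitochondrial counts, the GC correction and the copy search were not simulated.

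Alternatives were DESeq2 1.42.0, other scalings, no filter, a GC correction, other groupings, a replicate block, leaving out each library and leaving out doubtful libraries. The mitochondrial genes and the lists compared were chosen with earlier results of these data known. All 37 genes could be named, with called values given where any was called, and up to 4 called genes of smallest p from each nuclear list. Ndufs5 has a near-identical copy and is uncertain.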

Additional observations from a re-analysis of the deposited data

Results flagged for a closer look

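Of 108 groups of 4 libraries screened for the mitochondrial share, the protein-coding and rRNA genes, mt-Tp and mt-Tl1, 13 held 1 library far from the other 3. Chance gives this in about 1 in 20 groups if they are independent. These are not, since the measures share libraries and their mitochondrial totals, so 13 of 108 cannot be set against that rate. Most of these values belong to male wild type high fat 1 or female wild type chow 1. The mitochondrial share of that male library was 13.5%, and that female library is also 1 of the 3 wild types of low Trim63, at 130.1 CPM.

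Male wild type high fat 1 had mt-Co1 at 51720 CPM, where the other 3 libraries of its group had 37630 to 38250 CPM. Its mt-Cytb level was 24130 CPM (others 18870 to 19130), mt-Nd3 70.18 CPM (others 31.26 to 35.09) and mt-Atp8 23.37 CPM (others 4.167 to 6.958). Of its tRNA genes, mt-Tp was at 70.52 CPM (others 46.86 to 48.84) and mt-Tl1 at 4.506 CPM (others 1.583 to 1.771).

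Female wild type chow 1 had mt-Cytb at 23310 CPM (others 19080 to 19610), mt-Co3 at 808.9 CPM (others 418.0 to 480.1) and mt-Atp6 at 524.8 CPM (others 281.0 to 314.0). Its mt-Nd4l was at 65.31 CPM (others 49.39 to 52.08), mt-Atp8 at 17.26 CPM (others 6.713 to 7.398) and mt-Tp at 72.04 CPM (others 47.57 to 50.9). Female knockout chow 3 had mt-Cytb at 19690 CPM, below the 21820 to 22010 CPM of the other 3.

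The diet effect in females minus that in males was called for mt-Nd5 (-1.51), mt-Nd2 (-0.755), mt-Th (-2.71) and mt-Tl2 (-3.12), as log2 values of the fit over all genes. Scaled to mitochondrial counts, it was called for mt-Nd5 (-1.19), mt-Nd4l (-0.874), mt-Th (-2.31), mt-Tl2 (-2.71), mt-Co2 (1.04) and mt-Tn (0.883). mt-Th and mt-Tl2 passed the filter on low counts through 4 and 8 libraries, all 4 and 7 of them from females on chow, so a difference was built into their being tested and their values support nothing.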

How the results depend on the processing

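Counts are of the 26 tested mitochondrial genes, among them mt-Th, mt-Tl2, mt-Tg and mt-Ta, which the filter favours. Settings that left out no single library kept 258 values of the comparisons within 1.5 times the count or within the SD of 2.04 points of the share, and 28 counts moved. No share difference moved by more than that SD and no called value changed sign. Small share differences did change sign. That of genotype in females on chow was 0.517 points and -0.116 with own-title groups, and that of genotype by diet was 0.192, -0.0546 with own-title groups and -0.515 and -0.642 without 2 and 3 wild types of low Trim63. With 1 library left out, they ran from -1.43 to 0.913 for genotype in females on high fat, -0.029 to 1.81 for genotype in males on chow and -0.331 to 0.843 for genotype by diet. Of the called single genes, Trim63 included, 333 values stayed called and 65 did not in such settings, and 1101 stayed called and 99 did not with 1 library left out.

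In the fit over all genes, DESeq2 called 2 genes for diet on average (edgeR 1), 2 for genotype in males on chow (edgeR 1), 0, 3 and 1 for diet in female knockouts, female wild types and male knockouts (edgeR 2, 0 and 0) and 1 for genotype by sex (edgeR 0). The GC correction called 0, 3, 1, 1 and 1 for diet on average, genotype in males on chow, and diet in female knockouts, female wild types and male knockouts. With own-title groups for every library the counts were 0 for diet on average, 5 for diet in female knockouts, 1 for diet in male knockouts and 2 for sex by diet (4 reported). The diet average also gave 0 with no filter, with only libraries whose labels give 1 group, and without 2 or 3 wild types of low Trim63. Without these 3, diet in male knockouts gave 1. Without the 3 libraries of high Krt10 the counts were 7 for sex (13 reported), 0 for diet on average, 0 for diet in female knockouts and 1 for diet in female wild types. Leaving out these sets of 3 was chosen after seeing the data. Scaled to mitochondrial counts, no filter gave 1 for diet on average (0 reported), and libraries whose labels give 1 group gave 3 for sex by diet (6 reported). The cause of these shifts was not tested.

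With 1 library left out, counts ran from 8 to 15 for sex, 2 to 7 for sex by diet, 0 to 2 for diet on average, 0 to 2 for genotype in males on chow, 0 to 2, 0 to 6 and 0 to 1 for diet in female knockouts, female wild types and male knockouts, and 0 to 1 for genotype by sex. Scaled to mitochondrial counts they ran from 0 to 1 for diet and for genotype on average. The 6 for diet in female wild types and the 7 for sex by diet came without female wild type high fat 1, the 2 for sex by diet without male wild type high fat 1, and the 8 for sex without male knockout chow 2.

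Over all genes, the range of calls in the other settings was 0 to 361 for diet on average (116 reported), 128 to 997 for genotype on average (615 reported), 287 to 1272 for genotype in males on chow (974 reported), 106 to 3855 for diet in female knockouts (2688 reported), 5 to 3844 for diet in female wild types (3558 reported), 3288 to 4832 for sex (4317 reported) and 5070 to 6514 for sex by diet (6340 reported). The low value of 106 came without the libraries of high Krt10, and those of 0, 128 and 5 with own-title groups, in which the Trim63 difference was -3.10.

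Replicate numbers were not treated as pairs, and whether libraries of the same number share a factor is not settled. Deviations of 99 same-numbered pairs correlated by -0.318 to 0.457 (mean 0.0336, others -0.0108), 33 of them over 0.1. Of 30 libraries, 13 correlated best with their own number, and the number expected with no pairing is not given here. Over all genes the replicate block gave the highest counts for genotype on average (997), diet in female wild types (3844) and sex by diet (6514). With the replicate block, 2 genes were called for genotype in males on chow and 2 for diet in female wild types, and no other count of mitochondrial genes moved by over 1.5 times.

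Values with few reads are limited by depth, and 11 of 37 genes were too low to test.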

Other observations

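The library in no group, whose own title reads male knockout high fat with replicate number 1, had 10485009 counts, of which 12.9% were mitochondrial. Its Trim63 level was 107 CPM and its Krt10 level 2.58 CPM. Protein-coding genes held 96.4% of its mitochondrial counts, rRNA genes 3.51% and tRNA genes 0.0919%. Complex I genes held 41.2% of them, mt-Cytb 17.7%, complex IV genes 37.2% and complex V genes 0.295%.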
